A study of Mus musculus with 4 samples.

Results

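Genes of Müller glia, the main glial cell of the retina, were followed in mouse retina: Glul, Slc1a3, Aqp4, Kcnj10, Sox9, Sox2, Abca8a, Vim, Gfap and Car14. They were listed by name, with no threshold on a measured value but with earlier results of these data known, and are 10 of the 52636 genes in the deposited table. All 10 were abundant enough (a mean of 10 or more over the 4 libraries) to be among the 16833 genes tested. Retinas of 3-week-old mice that carried the rhodopsin mutation Q344X (2 libraries) were compared with retinas of 3-week-old wild-type mice, labelled WT (2 libraries). Q344X is a premature stop codon in rhodopsin, the light-sensitive protein of rods, and causes autosomal dominant retinitis pigmentosa. The labels do not give the strain, sex, number of mutant copies, the way the allele was made or whether retinas were pooled, and the design text says that the third replicate of each genotype was dropped for low RNA quality or as an outlier. The values, called normalized counts here, are gene counts over a size factor that the authors set for each library.

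Müller glia span the whole depth of the retina and serve its neurons. They take up glutamate and convert it to glutamine, carry potassium and water away from active neurons to the vitreous and the vessels, and buffer carbon dioxide and acid. When photoreceptors are damaged, these cells can become reactive, a state known for higher levels of intermediate filaments such as GFAP.

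The libraries held 18452679 to 19706573 reads in genes. Q344X replicate 2 stood apart in lens genes: Cryaa, Cryba1, Crygs, Bfsp1 and Mip summed to 4855 normalized counts there, against 167500 in Q344X replicate 1 and 175367 and 210936 in WT replicates 1 and 2. WT replicate 1 stood apart in sex-linked genes: Ddx3y was at 1598 there and at 0 in the other 3 libraries, although Xist was at 20823 in the same library. The other libraries had Xist between 26839 and 55578. Both X-inactivation and Y-linked RNA were therefore present in 1 library of the WT group. Long genes read lower in Q344X replicate 2 than in replicate 1. For genes with exons of 8000 bases or more the median log2 difference between these 2 libraries was -0.33, and for genes under 1500 bases it was 0.31 (WT replicate 2 minus 1, -0.11 and 0.08). The 10 genes rested on 158 reads (Sox9 in Q344X replicate 1) to 55464 reads (Glul in WT replicate 1).

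In the Q344X retina 1 of the 10 genes, Car14, rose and 3 fell, Abca8a, Aqp4 and Kcnj10, while 6 did not pass the test (limma, Benjamini-Hochberg adjusted p under 0.05 over all tested genes). Across all tested genes 14.6% passed, 5.46% higher and 9.1% lower. The median log2 fold change, Q344X minus WT, was -0.23 over the 10 genes and 0.02 over all tested genes. For 6 of the 10 genes both Q344X values lay on one side of both WT values, as they did for 63.1% of all tested genes. The same 4 genes passed in the same direction when whole reads recovered from the table were tested with edgeR, and with a correction for gene length and GC content (-1.85 for Abca8a, -0.86 for Aqp4, -0.76 for Kcnj10 and 1.11 for Car14). When every gene above 0 was tested, 30816 in all, none of the 4 passed in limma (adjusted p = 0.0663 to 0.0770), although all 4 had an unadjusted p under 0.05. In a bulk sample, fewer Müller cells and less RNA of a gene per cell cannot be told apart.

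**Figure D1:**
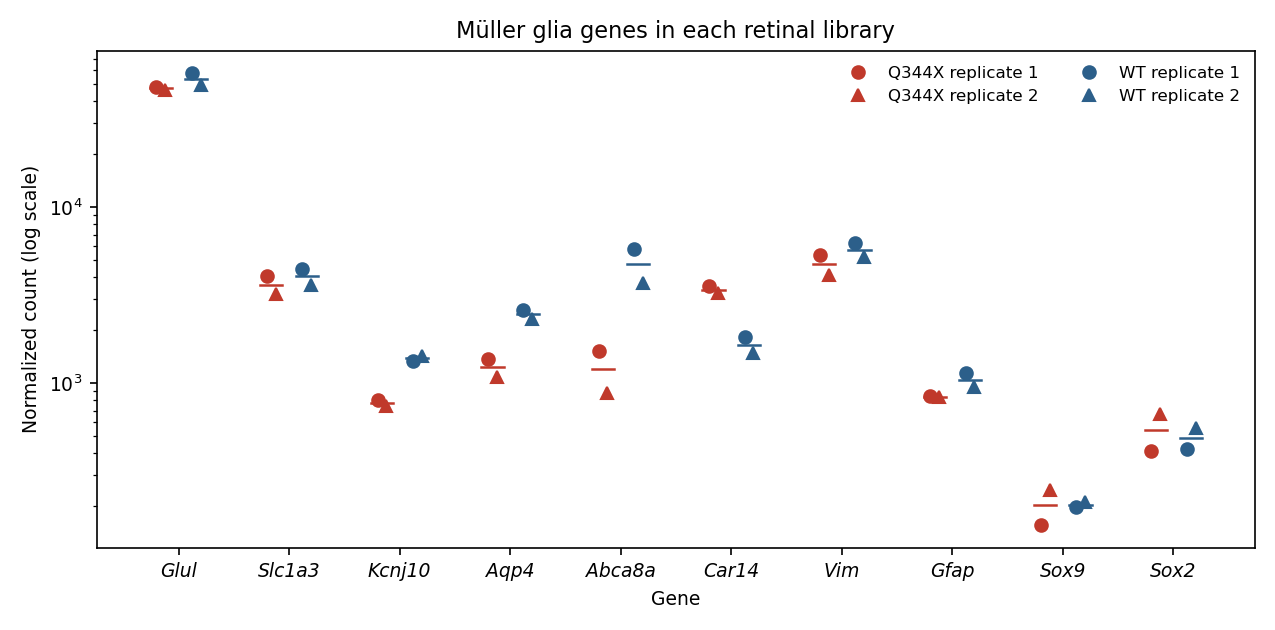
Normalized counts (log axis) of the 10 Müller glia genes in each retinal library, Q344X in red and WT in blue, with circles for replicate 1, triangles for replicate 2 and lines at the group means. Kcnj10, Aqp4 and Abca8a lie lower in both Q344X libraries and Car14 higher, while the Slc1a3, Vim, Sox9 and Sox2 points of the genotypes overlap.

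Glul encodes glutamine synthetase, which turns glutamate and ammonia into glutamine (chr1:153899944-153909723, plus strand, GRCm38, as for all positions here). Its normalized counts were 48443 and 46485 in Q344X libraries, against 57680 and 49319 in WT libraries. Both Q344X values lay below both WT values, but the test was not passed and the interval includes 0 (log2 fold change -0.17 ± 0.20, SE, 95% interval -0.65 to 0.32, limma adjusted p = 0.578). Quantile normalization turned its sign, to 0.16. Slc1a3 encodes GLAST, the main glutamate transporter of Müller cells (chr15:8634124-8710764, minus strand). It was at 4078 and 3206 in Q344X libraries and at 4487 and 3626 in WT libraries, with overlapping groups (-0.16 ± 0.21, SE, interval -0.68 to 0.36, limma adjusted p = 0.629). Without Q344X replicate 2 this difference was 0.016.

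The potassium channel and water channel genes of the 10 both fell. Kcnj10 encodes Kir4.1, the inward-rectifier channel through which Müller cells pass potassium (chr1:172341210-172374085, plus strand). Its counts were 802 and 743 in Q344X libraries, against 1343 and 1437 in WT libraries. The groups were far apart and each pair was tight, with means of 772 ± 41.7 in Q344X and 1390 ± 66.6 in WT (SD, n = 2 each). Kcnj10 fell by 0.85 on the log2 scale (SE 0.17, 95% interval -1.27 to -0.42, limma adjusted p = 0.0312). Aqp4 encodes aquaporin-4, the water channel that sits beside Kir4.1 in the Müller endfeet. It was at 1379 and 1089 in Q344X libraries and at 2619 and 2308 in WT libraries, again without overlap. Aqp4 fell by 1.004 on the log2 scale (SE 0.20, interval -1.49 to -0.52, limma adjusted p = 0.0294). Both calls were lost with either WT library left out: limma adjusted p was 0.163 and 0.207 for Kcnj10 and 0.148 and 0.0721 for Aqp4, without WT replicate 1 and 2 in that order. The fold changes themselves stayed between -0.90 and -0.79 for Kcnj10 and between -1.17 and -0.83 for Aqp4 over the 4 fits that each left out 1 library. The ratio of Aqp4 to Kcnj10 normalized counts was 1.72 and 1.47 in Q344X libraries and 1.95 and 1.61 in WT libraries, so the ranges of this ratio overlapped.

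Abca8a had the largest change of the 10. It encodes a transporter of the ABCA family, proteins that move lipids across membranes, and is a marker of mouse Müller glia. Its counts were 1530 and 885 in Q344X libraries, against 5787 and 3740 in WT libraries. The lowest WT library was still above the highest Q344X library, although replicate 2 was 0.579 times replicate 1 in Q344X and 0.646 times in WT, the widest replicate gap of the 10 genes in either genotype. Abca8a fell by 2.00 on the log2 scale (SE 0.34, 95% interval -2.83 to -1.17, limma adjusted p = 0.0206), and its call held with any 1 library left out (-2.39 to -1.60). The gene lies on chromosome 11, 110025634 to 110095978 on the minus strand (GRCm38), in a row of related Abca genes, which were looked at after the values were seen. Abca8b, next to it, was at 393 and 188 in Q344X libraries and at 1071 and 605 in WT libraries (-1.56 ± 0.43, SE, limma adjusted p = 0.0621). Abca6 was at 45.5 and 20.2 in Q344X libraries, against 203 and 125 in WT libraries, and fell by 2.35 on the log2 scale (limma adjusted p = 0.0282). Abca9 had -1.44 and Abca5 -0.38, neither past the threshold. These genes are paralogs, and how the counting treated reads shared between close copies was not examined. Kcnj10 also had a lower relative beside it: Kcnj9, which encodes the potassium channel GIRK3, was at 583 and 603 in Q344X libraries and at 2180 and 2312 in WT libraries. Kcnj9 fell by 1.92 on the log2 scale (SE 0.17, limma adjusted p = 0.00532).

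Car14 went the other way. It encodes carbonic anhydrase XIV, a membrane enzyme that turns carbon dioxide and water into bicarbonate and acid, known from Müller glia and from the retinal pigment epithelium (chr3:95897768-95904691, minus strand). Its counts were 3553 and 3243 in Q344X libraries, against 1823 and 1494 in WT libraries, with no overlap. Car14 rose by 1.04 on the log2 scale (SE 0.19, 95% interval 0.58 to 1.5, limma adjusted p = 0.0246), and without WT replicate 2 the call was lost (0.90, limma adjusted p = 0.143). The 10 markers of the pigment epithelium did not all move the same way. They summed to 6608 and 8321 normalized counts in Q344X libraries and to 5035 and 5628 in WT libraries. Of the 9 tested, Rpe65, Pmel and Tyr rose, Mitf fell and 5 did not pass (limma), against 5.46% of all tested genes higher and 9.1% lower. Pmel alone was called in every fit that left out 1 library. Tyrp1, a melanin enzyme gene, was at 219 and 221 in Q344X libraries and at 318 and 338 in WT libraries and did not pass (limma adjusted p = 0.0922). Rpe65, the visual cycle isomerase, was at 923 and 1134 in Q344X libraries and at 471 and 427 in WT libraries, and Best1, a channel gene of the same cells, was at 8.32 to 12.5 in all libraries. The part of pigment epithelium RNA in the Car14 difference was not tested. The end of Car14 overlaps Aph1a on the other strand, with 477 and 768 in Q344X libraries and 300.5 and 430.1 in WT libraries. No source used here says whether the counting used strand, so reads in the overlap cannot be assigned.

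The promoters of the called genes are shown because they differ in base composition and in the short motifs they hold. The window runs from 250 bases before to 50 bases after each RefSeq gene start (GRCm38.p6), in the direction of transcription. Capitals mark the SOX core ACAAT, searched because Sox9 and Sox2 are among the 10 genes, and the GC box GGGCGG, both searched on both strands (also as ATTGT and CCGCCC). The promoter of Aqp4 is not shown.
Abca8a promoter, chr11:110095888-110096187, minus strand: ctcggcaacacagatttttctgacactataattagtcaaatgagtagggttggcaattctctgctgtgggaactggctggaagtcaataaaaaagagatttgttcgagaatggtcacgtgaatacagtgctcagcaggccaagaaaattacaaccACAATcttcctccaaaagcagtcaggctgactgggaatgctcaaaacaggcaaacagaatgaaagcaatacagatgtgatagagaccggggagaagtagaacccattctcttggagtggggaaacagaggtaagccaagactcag
Kcnj10 promoter, chr1:172340960-172341259, plus strand: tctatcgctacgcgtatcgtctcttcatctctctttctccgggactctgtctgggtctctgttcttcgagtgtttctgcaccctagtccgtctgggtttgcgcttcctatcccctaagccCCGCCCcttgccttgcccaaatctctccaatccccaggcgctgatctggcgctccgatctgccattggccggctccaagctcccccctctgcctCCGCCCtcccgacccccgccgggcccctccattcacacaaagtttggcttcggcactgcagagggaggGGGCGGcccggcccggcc
Car14 promoter, chr3:95904636-95904935, minus strand: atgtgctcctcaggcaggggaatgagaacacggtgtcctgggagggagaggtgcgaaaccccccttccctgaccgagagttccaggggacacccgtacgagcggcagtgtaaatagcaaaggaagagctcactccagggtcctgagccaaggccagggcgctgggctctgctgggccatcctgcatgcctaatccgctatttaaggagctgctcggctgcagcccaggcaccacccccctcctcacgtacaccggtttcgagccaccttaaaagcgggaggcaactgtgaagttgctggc
The Abca8a window had 1 SOX core, starting 95 bases before the gene start, no GC box and a GC content of 44.3%. The Kcnj10 window had 3 GC boxes, no SOX core and a GC content of 63.7%. The Car14 window had neither motif, with a GC content of 61.0%. Over the 8 members with a promoter in the table, 2 held a SOX core (Abca8a and Slc1a3) and 4 a GC box. Of all 32851 promoters of this length, 31.0% held a SOX core and 35.7% a GC box, so both motifs are common in windows of this size and a match is a description of the letters only.

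**Figure D2:**
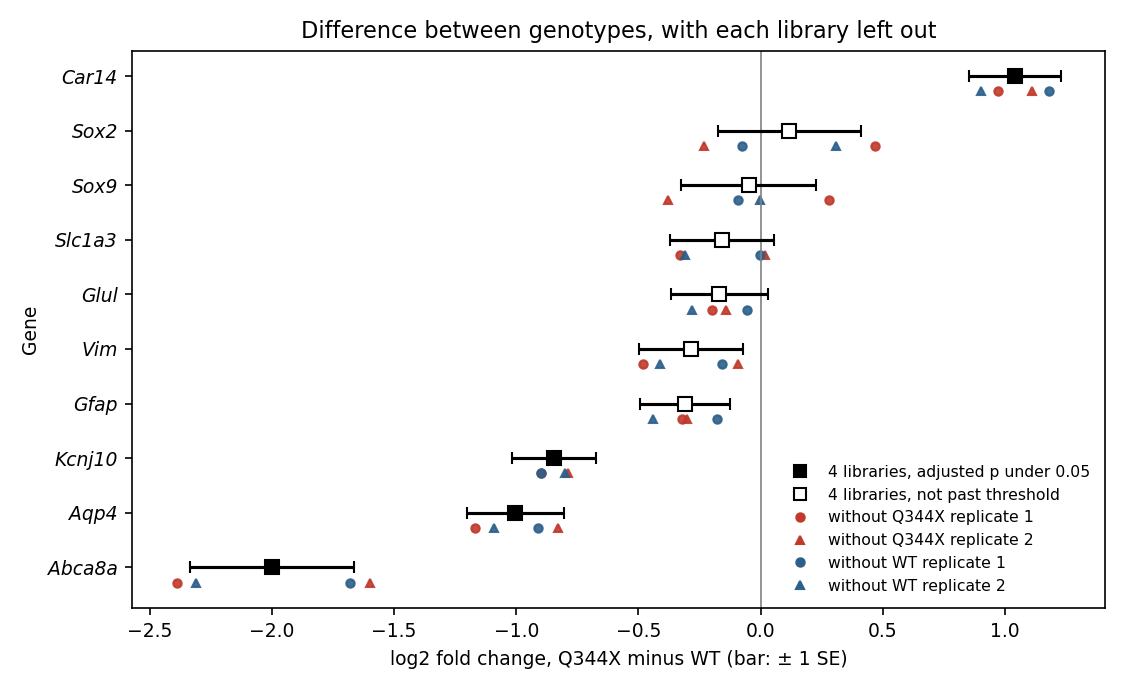
The log2 fold change of each gene, Q344X minus WT (squares, bars ± 1 SE, filled where adjusted p was under 0.05), with the estimate after leaving out each library in turn below it. Abca8a, Aqp4 and Kcnj10 stay below 0 and Car14 above 0 in every such fit, whereas Sox2, Sox9 and Slc1a3 lie on both sides of 0.

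The filament genes, which are the usual signs of reactive glia, were not higher. Gfap, the intermediate filament of reactive Müller glia and of astrocytes (chr11:102887336-102900912, minus strand), was at 845.5 and 835 in Q344X libraries, against 1141 and 952.5 in WT libraries. The Q344X libraries agreed closely and both lay below WT (-0.31 ± 0.18, SE, 95% interval -0.76 to 0.14, limma adjusted p = 0.279). A rise of Gfap above 0.14 on the log2 scale lies outside that interval. The interval rests on 2 libraries per group, whose spread may be technical, so it may not bound the difference between animals. Vim encodes vimentin, the main filament protein of resting Müller cells, also made in the lens (chr2:13573927-13582826, plus strand). It was at 5369 and 4115 in Q344X libraries and at 6258 and 5244 in WT libraries, with overlap (-0.29 ± 0.21, SE, interval -0.81 to 0.24, limma adjusted p = 0.381). The lowest Vim value was in Q344X replicate 2, the library with few lens reads, and without it the difference was -0.09. The part of lens RNA in Vim was not tested further.

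The transcription factors Sox9 and Sox2, which maintain Müller and progenitor identity, varied more between replicates than between genotypes. Sox9 (chr11:112782224-112787760, plus strand) was at 156 and 249 in Q344X libraries, against 198 and 211 in WT libraries, so the Q344X pair enclosed the WT pair (-0.05 ± 0.28, SE, 95% interval -0.73 to 0.63, limma adjusted p = 0.914). This is the rarest of the 10 genes, and its lowest library rests on 158 reads. Its sign turned without Q344X replicate 1 (0.28, against -0.38 without Q344X replicate 2), under quantile normalization (0.10) and with the length and GC correction (0.039). Sox2 (chr3:34650405-34652461, plus strand), which is also made by cholinergic amacrine cells, was at 413 and 672 in Q344X libraries and at 424 and 555.5 in WT libraries (0.12 ± 0.29, SE, interval -0.60 to 0.83, limma adjusted p = 0.802). In both genes replicate 2 was the higher one in each genotype, and the sign of Sox2 turned without Q344X replicate 2 (-0.23) or WT replicate 1 (-0.077). Sox2 lies inside the long noncoding gene Sox2ot on the same strand, which was at 380.2 and 249.5 in Q344X libraries and at 467 and 507 in WT libraries and did not pass (limma adjusted p = 0.130).

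Ratios within a library do not depend on how the library was scaled. For each 1000 Glul counts there were 16.6 and 15.98 Kcnj10 counts in Q344X libraries, against 23.3 and 29.1 in WT libraries. Aqp4 stood at 28.5 and 23.4 per 1000 in Q344X libraries and at 45.4 and 46.8 in WT libraries. Abca8a stood at 31.6 and 19.0 in Q344X libraries and at 100.3 and 75.8 in WT libraries. Car14 stood at 73.3 and 69.8 in Q344X libraries, against 31.6 and 30.3 in WT libraries. These 4 ratios, of the 4 called genes, did not overlap between the genotypes, and neither did those of Gfap (17.5 and 18.0 in Q344X libraries, against 19.8 and 19.3 in WT libraries) and of Apoe (233 and 262 in Q344X libraries, against 220.4 and 224 in WT libraries), which were not called. Of the 12 ratios computed, the other 6 overlapped. Slc1a3 was at 84.2 and 69.0 per 1000 in Q344X libraries and at 77.8 and 73.5 in WT libraries, and Rlbp1, the retinaldehyde-binding protein of Müller cells, was at 140.4 and 180.9 in Q344X libraries and at 139.9 and 158.9 in WT libraries. The 4 genes were called in these same libraries, so their ratios restate those differences and add no separate support. The share of all genes whose ratio to Glul does not overlap was not computed. In normalized counts, 63.1% of all tested genes did not overlap. The ratios describe unequal levels among Müller genes within a library, and they do not say which gene was constant. With 2 libraries against 2, a permutation test of such a ratio cannot give a p below 0.33, and none was run.

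**Figure D3:**
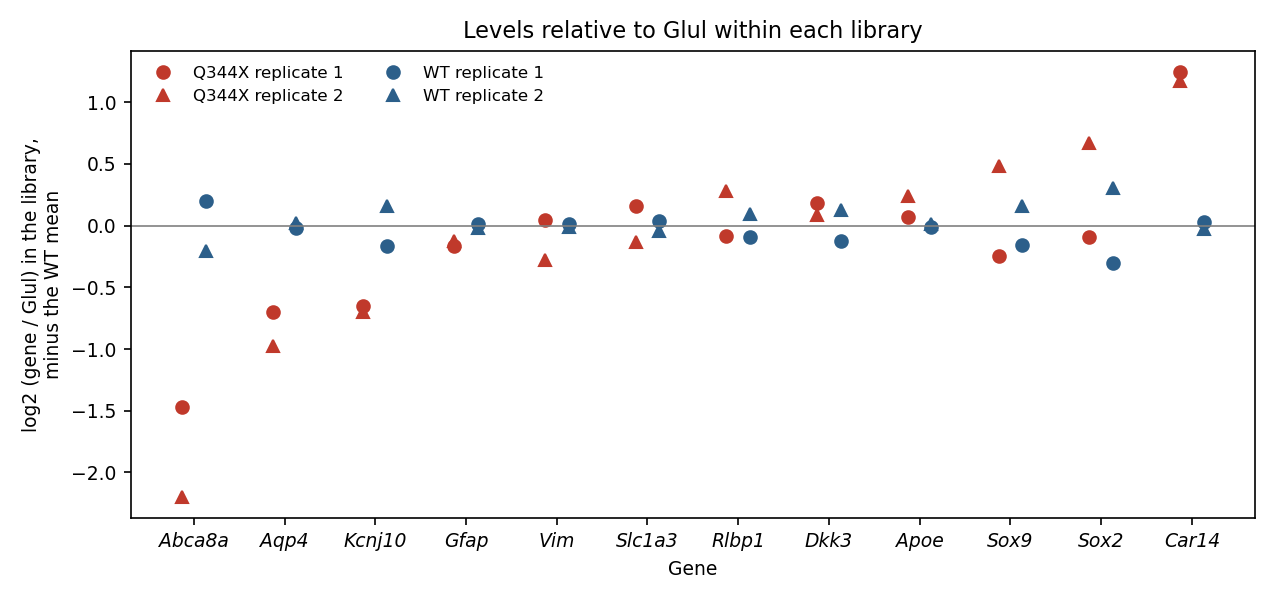
The log2 ratio of each gene to Glul within each library, shown as the distance from the WT mean of that ratio, for 9 Müller glia genes and 3 further markers (Rlbp1, Dkk3, Apoe). The Q344X points of Abca8a, Aqp4 and Kcnj10 lie below the WT points, those of Car14 lie above them, and Slc1a3, Vim and Rlbp1 scatter around 0.

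Per kilobase of exon, the order of the 10 genes differed between the genotypes, most for Abca8a and Sox2. In Q344X the mean normalized counts per kb were 14283 for Glul, 1336 for Car14, 999.7 for Vim, 427 for Slc1a3, 264 for Sox2, 199 for Gfap, 198 for Aqp4, 192.5 for Abca8a, 143 for Kcnj10 and 49.0 for Sox9. In this order the libraries of Gfap, Aqp4 and Abca8a overlapped one another, those of Sox2 overlapped those of Aqp4 and Abca8a, and those of Abca8a overlapped those of Kcnj10. In WT they were 16100 for Glul, 1213 for Vim, 759.5 for Abca8a, 652 for Car14, 475 for Slc1a3, 395 for Aqp4, 257 for Kcnj10, 248 for Gfap, 238 for Sox2 and 49.4 for Sox9. There the libraries of Abca8a and Car14 overlapped, and so did those of Kcnj10, Gfap and Sox2. Glul stood alone at the top in both genotypes.

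Of 17 further markers of Müller glia, 0 rose, 2 fell and 15 did not pass (limma, 4 lower at an unadjusted p under 0.05, and also 0 higher and 2 lower in edgeR), with a median log2 fold change of -0.07. The share that fell is near the 9.1% of all tested genes. Spc25, a kinetochore gene whose RNA marks Müller glia in the mouse, was at 378 and 525 in Q344X libraries, against 2559 and 2765 in WT libraries, and fell by 2.58 on the log2 scale (SE 0.22, limma adjusted p = 0.0052). Cav1, which encodes the membrane protein caveolin-1, fell by 0.75 (limma adjusted p = 0.0488), a call lost without WT replicate 1 (0.416) or 2 (0.153) and at a minimum mean of 50 (0.0514). By the mean of the 4 libraries the most abundant markers were Dkk3 (-0.04 ± 0.18, SE), a secreted modifier of Wnt signalling, and Apoe (-0.02 ± 0.18), the lipid carrier, neither past the threshold. Clu, which encodes the secreted chaperone clusterin, was at 7655 and 6217 in Q344X libraries, against 15572 and 11101 in WT libraries, and narrowly missed it (-0.93 ± 0.24, SE, limma adjusted p = 0.0519).

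Of 24 tested transport and metabolic partners of the 10 genes, 2 rose, 1 fell and 21 did not pass, with a median of -0.07. This share is near the 14.6% of all tested genes that passed. Slc38a3 encodes the transporter SNAT3, through which glia release glutamine. It was at 5844 and 4652 in Q344X libraries, against 10333 and 9952 in WT libraries, and fell by 0.96 on the log2 scale (SE 0.19, limma adjusted p = 0.0300, but 0.126 and 0.105 without WT replicate 1 or 2). Got1, which encodes an aspartate aminotransferase, had -0.09 and did not pass. Slc1a2, which encodes the glutamate transporter GLT-1, was at 4756 and 3832 in Q344X libraries and at 7321 and 6637 in WT libraries (-0.71 ± 0.19, SE, limma adjusted p = 0.0609). Which retinal cells the RNA of these 24 partner genes came from was not tested.

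Of 9 tested genes of the potassium and water pathway and of the dystrophin complex, which holds Kir4.1 and aquaporin-4 at the endfeet, 1 rose, 0 fell and 8 did not pass (limma, 2 lower at an unadjusted p under 0.05, and 0 lower in edgeR). Over all tested genes 5.46% were higher and 9.1% lower (limma). Agrn encodes agrin, a basement membrane proteoglycan that binds dystroglycan. It was at 3614 and 4023 in Q344X libraries, against 1524 and 1550 in WT libraries, and rose by 1.31 on the log2 scale (SE 0.17, limma adjusted p = 0.0112), also with any 1 library left out. Dmd, the dystrophin gene, was at 4011 and 2496 in Q344X libraries and at 6002 and 5146 in WT libraries (-0.81 ± 0.27, SE, limma adjusted p = 0.0911). Dag1, which encodes dystroglycan, had 0.30 and did not pass. Kcnj16, a partner subunit of Kir4.1, was below the minimum mean at 4.80 to 12.03 in all 4 libraries. Of 8 tested acid-base and lactate genes, 0 passed (limma, 2 higher at an unadjusted p under 0.05, and 0 in edgeR). The length and GC correction gave 3 that were higher, but it also called 2003 of all tested genes higher, against 919 without it. Car2, the abundant cytosolic carbonic anhydrase gene, was at 7917 and 9672 in Q344X libraries and at 8695 and 9383 in WT libraries (-0.05 ± 0.19, SE). Bsg had -0.02, Slc4a7 0.42 and Slc16a1 -0.31, none past the threshold.

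Of 21 tested genes of gliosis and injury, 1 was higher, 3 were lower and 17 did not pass, with a median of -0.08. Over all tested genes 5.46% were higher and 9.1% lower (limma). Lcn2 encodes lipocalin 2, a secreted protein of reactive glia. It was at 162 and 190 in Q344X libraries, against 55.1 and 82.2 in WT libraries, and rose by 1.37 on the log2 scale (SE 0.28, limma adjusted p = 0.0321, but 0.118 without WT replicate 1). Ednrb, the endothelin receptor of Müller glia, was at 153 and 133 in Q344X libraries and at 387 and 367 in WT libraries, and fell by 1.39 (SE 0.20, limma adjusted p = 0.0146). Its ligand gene Edn2 fell by 4.77 and the complement gene C4b fell by 4.12, both called with any 1 library left out, and both with WT libraries that differed widely. Edn2 was at 4.95 and 2.88 in Q344X libraries and at 289 and 58.2 in WT libraries. Stat3, the signalling factor upstream of reactive gliosis, had -0.04 ± 0.19 (SE) and its feedback inhibitor Socs3 had 0.05 ± 0.26, neither past the threshold. Other genes that did not pass differed more. Serpina3n was at 194 and 234 in Q344X libraries, against 157 and 54.1 in WT libraries (1.198 ± 0.495, SE, limma adjusted p = 0.149). Ptx3 had 0.677, Cd44 -0.702 and Il6st -0.695, also without overlap. Called genes included, 3 of the 21 were higher and 7 lower without overlap (47.6%, against 63.1% of all tested genes). Spc25, Lcn2, Ednrb, Edn2 and C4b were known to differ when the lists were drawn up. Their calls are therefore not a result about these lists.

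**Figure D4:**
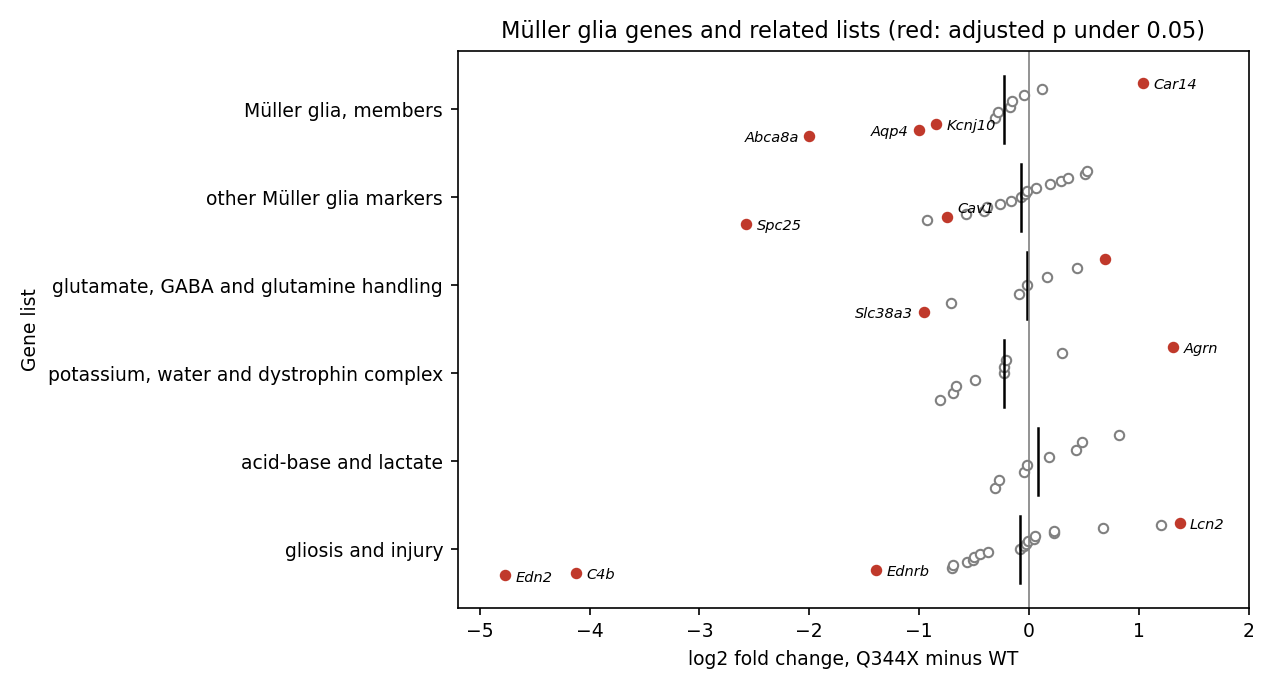
The log2 fold change, Q344X minus WT, of every tested gene in 6 lists, with genes past the threshold in red, labelled where the text names them, and a black line at each list's median. Each list has genes on both sides of 0, and the list medians lie between -0.23 and 0.09. The called genes Abca8a, Spc25, Agrn and Ednrb lie farther from 0 than most genes of their lists. Cav1 was called but lies nearer to 0 than Clu, which was not, and no acid-base and lactate gene was called.

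Several of the 10 genes are also made by other cells, so markers of those cells were read in the same libraries. Astrocyte markers, of interest for Gfap and Aqp4, summed to 1554 and 1485 normalized counts in Q344X libraries and to 1370 and 1170 in WT libraries. Pax2, which defines retinal astrocytes, was at 29.7 and 41.3 in Q344X libraries, against 9.36 and 6.02 in WT libraries, and rose by 2.08 on the log2 scale (SE 0.43, limma adjusted p = 0.0329, but 0.0588 without Q344X replicate 2 and 0.0662 without WT replicate 2). The other 3 tested astrocyte markers did not pass, and Gjb6 was at 1.98 to 2.88 in all libraries. Markers of cholinergic amacrine cells, of interest for Sox2, summed to 779 and 643 in Q344X libraries and to 940 and 807 in WT libraries. Endothelial markers summed to 6473 and 4671 in Q344X libraries, against 4944 and 3264 in WT libraries, fibroblast markers to 376 and 404 in Q344X libraries, against 519 and 602 in WT libraries, and microglial markers to 519 and 536 in Q344X libraries, against 511 and 436 in WT libraries. Kdr made most of the endothelial sums, at 5248 and 3196 in Q344X libraries and 4105 and 2418 in WT libraries, with overlap. Pdgfra made most of the astrocyte sums, at 970 and 817 in Q344X libraries and 862 and 689 in WT libraries. Of the tested members of the amacrine, endothelial, fibroblast and microglial lists, 0 passed at the settings used throughout in limma, and 0 in edgeR, while 3 endothelial genes were higher and 2 fibroblast and 1 amacrine gene lower at an unadjusted p under 0.05 (limma). Other limma settings did call some of them. The length and GC correction also called 2003 of all tested genes higher, against 919 without it. Of the 5 endothelial genes, 3 were called higher with the length and GC correction, 2 with quantile normalization and 2 without Q344X replicate 1. An amacrine gene was called lower with that correction and without Q344X replicate 1, and a fibroblast gene without Q344X replicate 1, Q344X replicate 2 or WT replicate 1. The part of these cells in the differences of the 10 genes was not tested.

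**Figure D5:**
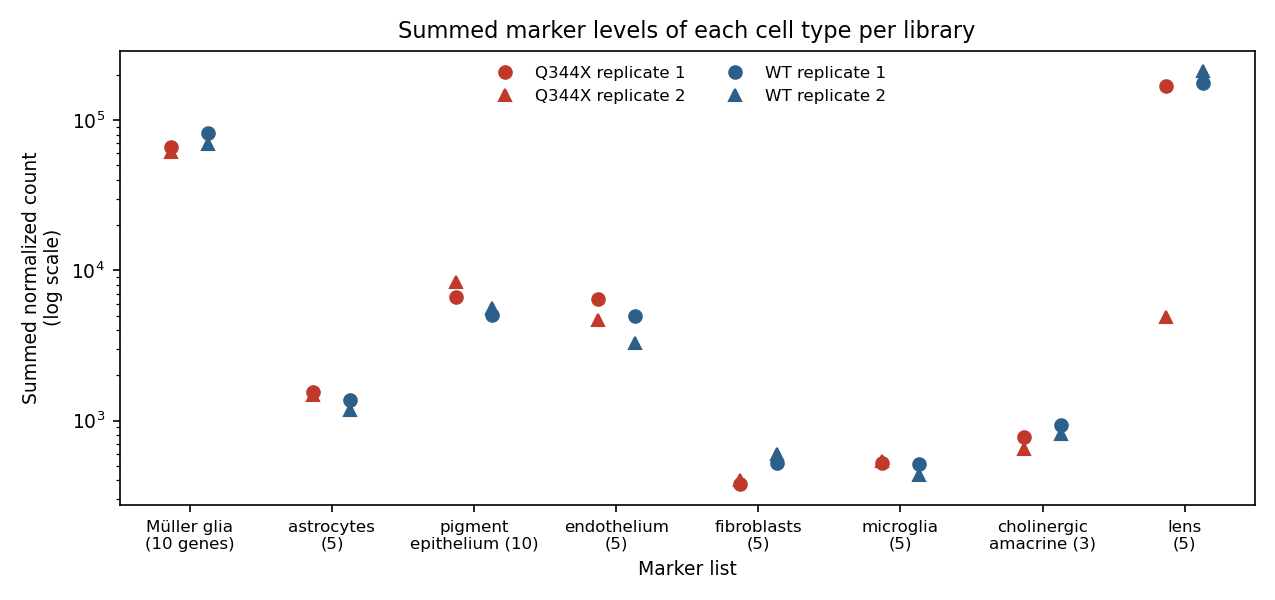
Summed normalized counts (log axis) of the Müller glia genes and of 7 marker lists in each library, Q344X in red left of WT in blue, with circles for replicate 1 and triangles for replicate 2. Lens genes are low in Q344X replicate 2 alone. Pigment epithelium, astrocyte and microglial sums are higher in both Q344X libraries than in either WT library. Müller glia, fibroblast and cholinergic amacrine sums are lower in both, and endothelial sums overlap. A sum follows its most abundant genes, such as Glul for Müller glia and Kdr for the endothelium.

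Among the 71 other tested genes of these Müller glia, partner and gliosis lists, the one whose profile over the 4 libraries was nearest to Aqp4 was Slc38a3, at a distance of 0.10, and the one nearest to Kcnj10 was Trpv4, a cation channel gene of Müller cells, at 0.20. The distance is Euclidean, between log2 values centred on each gene's mean. Car12, another membrane carbonic anhydrase gene, was nearest to Car14 at 0.29, with 243 and 262 in Q344X libraries and 161 and 126 in WT libraries (limma adjusted p = 0.0623). Ednrb was nearest to Abca8a, at 0.83. Glul and Gfap lay 0.15 apart, and Slc1a3 and Vim 0.14. With 4 libraries of 2 genotypes, genes with a like genotype difference and like replicate differences come out near each other. Of the 20 tested coding genes that flank the 10 genes on either side, 2 passed in limma, Kcnj9 and, beside Gfap, Ccdc103. Both fell, and 9.1% of all tested genes did. The Ccdc103 call was lost without WT replicate 2 (limma adjusted p = 0.117).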

How the data were processed

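Polyadenylated RNA of mouse retina was sequenced from directional libraries, per the labels' protocols. The submitters' processing notes name FastQC, Trim Galore 0.4.4, STAR, featureCounts, DESeq2 1.16.1 and mm10, without roles. The annotation and strand setting used are not stated there. The deposited signal is a gene count that the authors divided by a size factor per library (0.962 to 1.04). Divided by what 1 read is worth, 100% of the values above 0 came within 0.1 of a whole number, so reads could be recovered. For WT replicate 2 and Q344X replicate 1 that worth is close to 1, and a second check of the recovery could not decide.

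Symbols matched 52403 of 52636 identifiers. Positions and exon lengths are from GENCODE M21 (GRCm38, known as mm10), promoters from RefSeq (GRCm38.p6). Genes with a mean of at least 10 were tested with limma 3.58.1 in R 4.3.3 on log2(value + 1), with eBayes and a trend of variance on level, two-sided, on 2 residual degrees of freedom plus 3.90 from the prior, adjusted by Benjamini-Hochberg. Fold changes are on that log2 scale, which understates the change of low genes. The design text counts 2 animals per genotype, but the protocol for RNA gives 3 mice for Q344X and 2 for WT, and no label ties a library to an animal, so the spread of the 2 libraries per group may be technical. The fit was repeated with other pseudocounts (0.5, 5), without the filter, with a minimum mean of 50, with 75th percentile scaling, quantile normalization, robust moderation, a loess correction for length and GC content, and without each library. An edgeR 4.0.16 quasi-likelihood test on the recovered reads was added after the data were seen. The fit was tested on simulated data, and most genes set there to a log2 change of 1 were not called. The simulation changed a smaller share of genes than passed here and gave all genes the same dispersion. Its share of recovered genes therefore does not carry over to these data. With 2 libraries per group, a gene that did not pass is not shown to be equal between genotypes. A fit without 1 library takes its variance from the intact pair, and the lone library is assumed to vary like it. The 10 genes and all lists were chosen with earlier results of these data known. Up to 4 genes of each list were named, called genes with the largest change first, then the most abundant; other list genes, neighbours and paralogs in the text were chosen after their values were seen. Values of 2 list genes are not reported here, though the counts of their lists include them. Replicate numbers follow the order of deposit and pair nothing.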

Additional observations from a re-analysis of the deposited data

How the results depend on the processing

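Of the values of the 10 genes under the alternatives, 114 kept direction and side of the threshold, 9 kept direction but lost the call and 7 changed sign. Sign changes occurred in genes without a call: Glul (0.16, quantile normalization), Sox9 (0.10, quantile normalization; 0.039, length and GC correction), and, over the fits without 1 library, Slc1a3 (-0.33 to 0.016), Sox9 (-0.38 to 0.28) and Sox2 (-0.23 to 0.47).

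With no filter, which raised the number of genes tested, the calls were 0 higher and 0 lower among the 10 genes, 153 higher and 383 lower among all genes, 1 lower among other Müller markers, 1 higher and 0 lower among partners, and 0 higher and 1 lower among gliosis genes. A minimum mean of 50 left 1 other Müller marker lower. Partners higher numbered 1 with 75th percentile scaling, 1 in edgeR and 5 with the length and GC correction. That correction gave 2003 genes higher and 1953 lower, against 919 and 1531 without it. Leaving out each library gave 0 to 1 higher and 1 to 3 lower of the 10 genes, 555 to 2388 higher and 904 to 3045 lower of all genes, 0 to 2 higher and 1 to 3 lower of other Müller markers, 1 to 4 higher and 0 to 4 lower of partners, and 1 to 2 higher and 3 to 7 lower of gliosis genes. The lowest counts over all genes came without WT replicate 1 and the highest without Q344X replicate 1. Apart from the smaller or larger number of genes and samples, the cause was not tested. No paired analysis was possible because the replicate numbers only follow the order of deposit. Counting error was at most 7.96% for any of the 10 genes (Sox9, 158 reads). The limma SEs rest on the spread of 2 libraries per group and, through the prior, on that of all tested genes. They have 2 residual and 3.90 prior degrees of freedom.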
